A study of Mus musculus with 15 samples.

Results

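The potassium channel subunit genes of the mouse prefrontal forebrain cortex were examined in 15 RNA-seq libraries. The set holds every gene whose symbol begins with Kcn, apart from Kcnj10, that reached at least 1 FPKM in at least 3 libraries. FPKM is the number of reads on a gene divided by the length of its model and by the depth of the library, so levels of different genes can be set side by side on this scale. Of 94 genes with such a symbol, 70 reached that level and 69 are members, among 21878 genes listed and 12728 that passed the same filter. The members were chosen by symbol and level, and Kcnj10, which reached that level in all 15 libraries, was left out by name. The rule names no difference between groups, but it was set with earlier results of these data known. At the edge of the rule, Kcnj13 was just inside with a mean of 0.820 FPKM over all libraries, and Kcnk10, at 0.781 FPKM, and Kcng3, at 0.744 FPKM, were just outside. At least 1 FPKM was reached in all 15 libraries by 63 members, and each of the other 6 (Kcna5, Kcne1l, Kcne4, Kcnh6, Kcnj13 and Kcnu1) passed through libraries of more than 1 group.

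The mice carried a conditional deletion of both presenilin genes, named PS1/PS2 DKO in the labels, or were wildtype C57BL6/J. From the age of 8 months they received plain water or nicotine at 100 µg/ml in the drinking water for 3 months. There were 4 libraries of wild type on water (WT-B), 4 of wild type on nicotine (WT-N), 4 of double knockout on water (DKO-B) and 3 of double knockout on nicotine (DKO-N). The sources used here name neither the sex of the mice nor the Cre driver of the deletion. Nothing in the labels says that each library is a separate mouse, so p-values reflect the spread among libraries, which may be in part technical.

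Potassium channels let potassium leave or enter the cell and thereby set the resting potential, repolarise the action potential and limit repetitive firing. Voltage-gated channels are tetramers of pore-forming alpha subunits, which auxiliary subunits and silent alpha subunits modify. Inward rectifiers and tandem-pore leak channels hold the membrane near rest, while calcium- and sodium-activated channels shape the afterhyperpolarisation. In the cortex most of these genes are transcribed in neurons, and a smaller number are known from glia or vessels.

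The libraries held 16334852 to 19469175 reads in genes, and the thinnest member, Kcne1l, stood on 21 to 168 reads in a library. The targeted gene Psen2 lay at 5.44–7.14 FPKM in WT-B and 5.71–7.05 FPKM in WT-N, against 1.29–1.72 FPKM in DKO-B and 1.36–1.76 FPKM in DKO-N. The Y-linked genes Uty, Kdm5d, Ddx3y and Eif2s3y summed to 24.3–33.0 FPKM in all WT-B and DKO-B libraries, to 0.1 FPKM in all WT-N libraries, and to 0.2 FPKM in DKO-N-2, against up to 36.6 FPKM in the other 2 DKO-N libraries. The genotype comparison on water is therefore balanced in Y-linked expression. Nicotine in wild type cannot be told apart from it. In the genotype comparison on nicotine all 4 Y-linked genes were called higher in DKO-N, so that comparison and the interaction are not balanced in it, and its part in their calls was not tested. Tissue makeup, read from marker genes, also moved with genotype. The summed level of 5 excitatory neuron markers was 1349–1395 FPKM in WT-B and 1089–1214 FPKM in DKO-B, and 4 of the 5 were called lower on water and on nicotine (Slc17a7 was not). The 7 microglial markers summed to 149–169 FPKM in WT-B and 461–521 FPKM in DKO-B, the 6 astrocyte markers to 431–492 and 569.6–619.6 FPKM, and the 6 inhibitory neuron markers to 481–532 and 583–724 FPKM. All of these microglial, astrocyte and inhibitory markers were called higher on water. On nicotine 5 of the 7 microglial, all 6 astrocyte and 3 of the 6 inhibitory markers were called higher. Markers of striatal neurons (3 of 5 called higher on water, 0 on nicotine) were summed at 118–175 FPKM in WT-B and 183–302 FPKM in DKO-B. In bulk tissue, fewer cells of a type and less RNA per cell cannot be told apart, and the part of tissue makeup in the results below was not tested.

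The highest level belonged to Kcnab2, a cytoplasmic beta subunit of Kv1 channels, with a mean of 96.1 FPKM over all libraries. Other abundant members were Kcnj9, a G-protein-gated inward rectifier, with 47.6 FPKM, and Kcnip2, a calcium-binding partner of Kv4 channels, with 39.0 FPKM. At the low end, Kcnj13 (0.820 FPKM), Kcne4 (1.03 FPKM) and Kcnu1 (1.06 FPKM) lay close to the threshold, which their libraries straddled. The 69 members together summed to 1017–1048 FPKM in WT-B and 1017–1039 FPKM in WT-N, against 911–927 FPKM in DKO-B and 887–938 FPKM in DKO-N. Every double knockout library was thus below every wild-type library in the summed transcript of the members, a sum that leaves out Kcnj10.

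**Figure D1:**
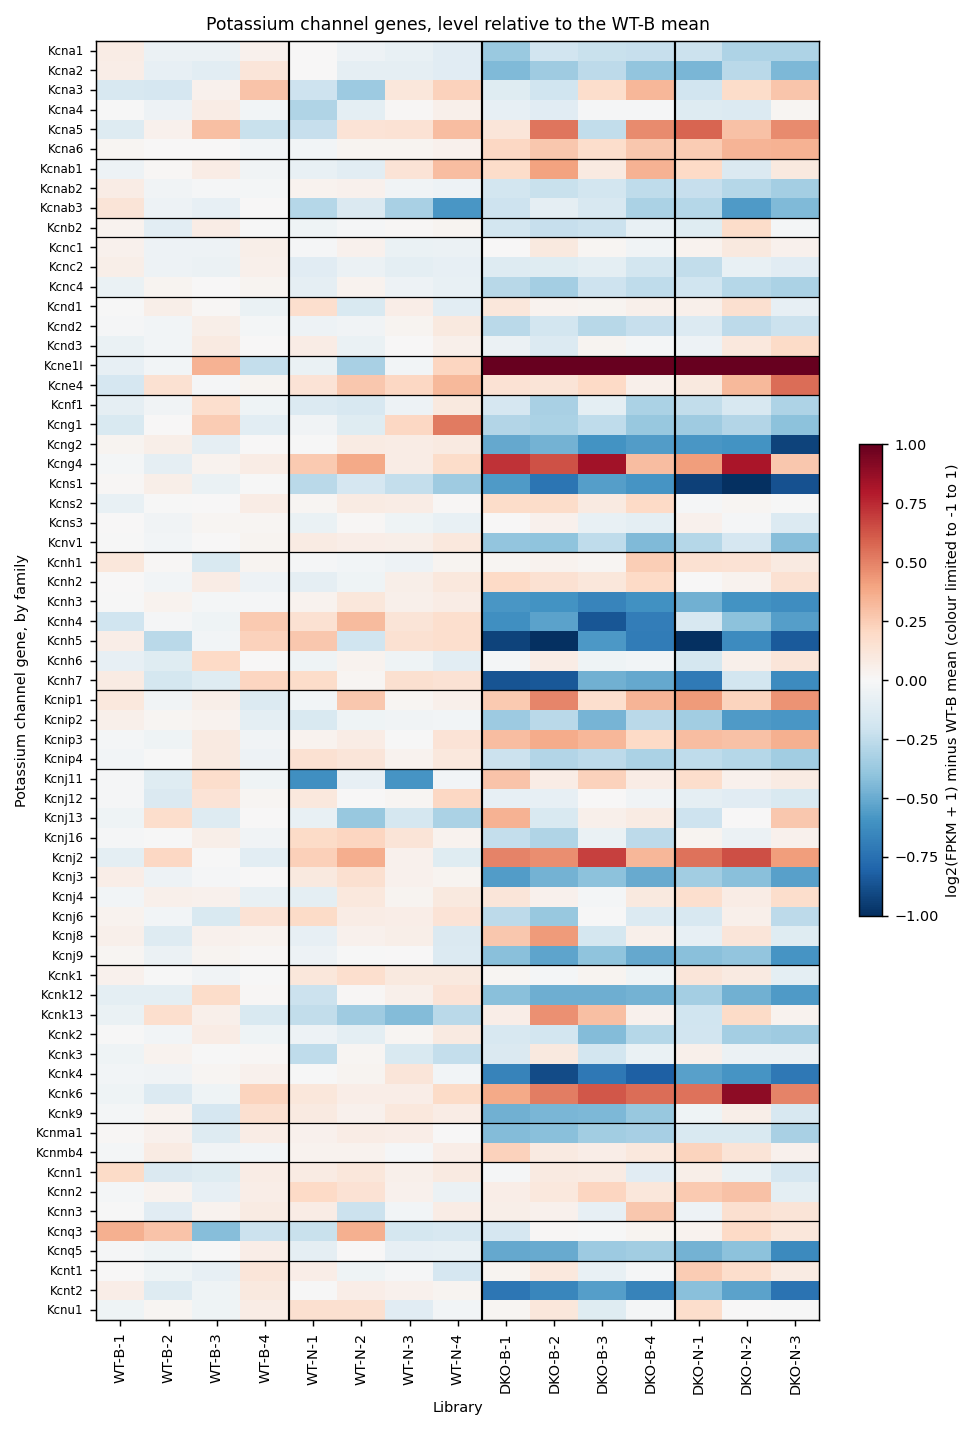
Level of 65 of the 69 members in each library as log2(FPKM + 1) minus the mean of the 4 WT-B libraries, on a colour scale limited to -1 to 1, with rows ordered by family and columns by group. The 7 double knockout columns share blocks of lower values in Kcnh3, Kcnh4, Kcnh5, Kcnh7, Kcnk4, Kcnt2 and Kcns1, and higher values in Kcne1l, Kcnk6 and Kcnj2, while 0 members were called between the WT-N and WT-B columns.

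The comparison of double knockout with wild type on water asks how channel transcripts differ without nicotine. Of the 69 members, 30 fell, 11 rose and 28 did not pass the test (limma on log2(FPKM + 1), Benjamini-Hochberg adjusted p under 0.05 over 12728 genes). Members called lower made up 43.5% of the set, against 12.4% of all genes tested, and members called higher 15.9%, against 25.5%. The median member difference was -0.06 on the log2 scale, against 0.05 for all genes. After median-of-ratios rescaling 33 members were lower and 7 higher (all genes 19.8% and 18.2%), so the excess of lower over higher members held under both scalings. All 30 lower calls were kept on rescaling, and the higher calls of Kcnab1, Kcnh2, Kcnmb4 and Kcns2 were lost.

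Double knockout and wild type were compared again among mice on nicotine, with no library in common with the water comparison. Here 26 members fell and 9 rose, against 11% of all genes lower and 24.6% higher, with a median member difference of -0.06 against 0.06 for all genes. After rescaling 32 were lower and 7 higher, against 19% and 15.7% of all genes. Both comparisons together had 25 members lower and 6 higher in each, 0 in opposite directions and 24 called in neither. The counts of 6, 0 and 24 are given without a share over all genes, so nothing particular to the members is read from them. The 25 shared members were 83.3% of those lower on water and 96.2% of those lower on nicotine, while over all genes the shared lower genes were 67.8% and 76.4%. The 10 members called only on water (among them Kcnab1, Kcnc2, Kcnf1, Kcng4, Kcnh2, Kcnj16, Kcnk9, Kcnmb4 and Kcns2) and the 4 called only on nicotine (Kcnj11, Kcnj12, Kcnk13 and Kcnt1) are not shown to differ between the comparisons, since no member passed the interaction test given below. The split also depends on the scaling, since after rescaling Kcnf1, Kcnj16 and Kcnk9 were called lower on nicotine too (adjusted p = 0.0186, 0.0140 and 0.0256).

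**Figure D2:**
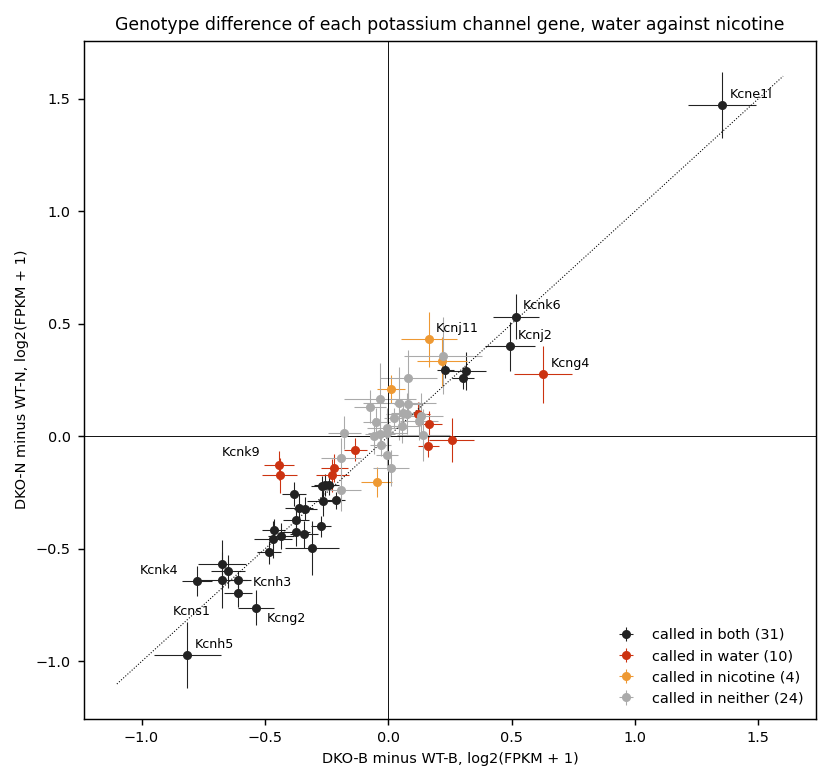
Genotype difference of each member on water (x axis) and on nicotine (y axis), both in log2(FPKM + 1), with bars of 1 standard error and a dotted line of equality. Colours mark the members called in both comparisons (31), in 1 of them (10 on water, 4 on nicotine) or in neither (24); Kcne1l stands alone at the upper right and Kcnh5 is the lowest point on both axes.

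Promoter sequence is shown for 6 of the 48 members with an entry in the RefSeq promoter table for GRCm38.p6. They are the 2 largest rises (Kcne1l and Kcng4) and the 3 largest falls (Kcnh5, Kcnk4 and Kcnh7) on water among these 48, and Kcns1. Kcns1 was also called lower with nicotine in the double knockout, but not in wild type. That call was lost in several of the alternatives given below. Each line gives the 250 bases before the start used in that table, 5′ to 3′ on the gene's own strand, which is the minus strand for all 6. For Kcnk4 the gene's span in RefSeq (6925662 to 6934883 on chromosome 19) reaches past this start, so its window lies inside the gene. Capitals mark the GC box GGGCGG on either strand, the sequence bound by Sp1.
Kcne1l (chrX:142306199-142306448): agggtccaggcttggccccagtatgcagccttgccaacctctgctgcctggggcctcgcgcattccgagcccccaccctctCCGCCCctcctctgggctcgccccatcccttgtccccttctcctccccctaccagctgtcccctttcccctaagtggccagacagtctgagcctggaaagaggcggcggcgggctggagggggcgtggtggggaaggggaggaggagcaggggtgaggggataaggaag
Kcng4 (chr8:119635681-119635930): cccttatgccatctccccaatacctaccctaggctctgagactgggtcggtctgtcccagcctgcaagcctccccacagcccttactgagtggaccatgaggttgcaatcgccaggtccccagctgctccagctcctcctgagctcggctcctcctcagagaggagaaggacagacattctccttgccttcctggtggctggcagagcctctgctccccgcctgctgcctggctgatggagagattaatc
Kcnh5 (chr12:75177333-75177582): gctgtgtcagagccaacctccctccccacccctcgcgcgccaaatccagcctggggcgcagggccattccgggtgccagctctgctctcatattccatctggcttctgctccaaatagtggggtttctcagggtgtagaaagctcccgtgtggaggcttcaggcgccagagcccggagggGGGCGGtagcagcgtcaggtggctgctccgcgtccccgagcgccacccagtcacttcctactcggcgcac
Kcnk4 (chr19:6934516-6934765): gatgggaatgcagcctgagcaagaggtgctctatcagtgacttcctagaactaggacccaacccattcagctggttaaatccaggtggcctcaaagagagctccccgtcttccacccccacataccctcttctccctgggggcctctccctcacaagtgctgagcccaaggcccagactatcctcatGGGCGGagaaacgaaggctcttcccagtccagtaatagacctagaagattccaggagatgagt
Kcnh7 (chr2:63184288-63184537): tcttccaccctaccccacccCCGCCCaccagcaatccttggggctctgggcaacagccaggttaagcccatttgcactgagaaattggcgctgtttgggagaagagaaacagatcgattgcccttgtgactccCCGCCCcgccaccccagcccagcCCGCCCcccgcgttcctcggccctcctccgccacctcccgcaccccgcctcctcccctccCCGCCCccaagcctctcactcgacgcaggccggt
Kcns1 (chr2:164171114-164171363): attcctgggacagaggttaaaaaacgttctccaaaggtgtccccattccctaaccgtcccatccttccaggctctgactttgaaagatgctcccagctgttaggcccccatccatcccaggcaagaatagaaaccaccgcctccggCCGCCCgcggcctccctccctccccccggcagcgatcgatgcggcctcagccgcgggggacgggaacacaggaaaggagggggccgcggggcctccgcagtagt
Kcnh7 held 4 GC boxes, starting 230, 117, 94 and 34 bases before the start, and Kcng4 held none. Among the 48 members with an entry, 32 (66.7%) had a GC box in this window, against 69.7% of the 10173 tested genes in the table and 38.2% of all 27025 genes in it. Of the 25 members lower in both comparisons 18 had an entry, and 14 of these had a GC box. Other motifs were searched on both strands. The E-box CACGTG was found in 4 of 48 members (8.33%, all tested genes 11.8%), GTGGGAA, a sequence bound by the Notch effector RBPJ, in 4 (8.33%, 7.41%), the AP-1 site TGACTCA in 2 (4.17%, 4.26%), the cAMP response element TGACGTCA in 0 (3.57% of tested genes), the EGR1 site GCGGGGGCG in 3 (6.25%, 6.81%) and TATAAA in 4 (8.33%, 8.55%). The EGR1 site and the GC box can share bases. The matches are descriptions of the sequence in this window.

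Among the Kv1 alpha subunits, which form low-threshold channels in axons, Kcna1 and Kcna2 fell and Kcna6 rose. Kcna1 was at 36.0, 32.7, 32.8 and 35.1 FPKM in WT-B and at 26.2, 29.8, 29.0 and 28.9 FPKM in DKO-B, a fall of 0.25 ± 0.046 (SE) on the log2 scale (adjusted p = 3.40e-04). On nicotine it was at 31.5–34.2 FPKM in WT-N and 27.4–29.3 FPKM in DKO-N, again with no overlap. Kcna2 lay at 27.9–32.8 FPKM in WT-B and 21.9–24.9 FPKM in DKO-B, and at 27.7–30.2 and 21.7–24.8 FPKM in WT-N and DKO-N. Both genes are known from the juxtaparanodes of myelinated axons and from basket cell terminals. Kcna6 went the other way, from 22.6, 22.3, 22.3 and 21.8 FPKM in WT-B to 25.9, 27.0, 25.3 and 27.0 FPKM in DKO-B, a rise of 0.23 ± 0.035 (SE; adjusted p = 6.75e-05), and from 21.8–23.0 to 26.7–28.6 FPKM on nicotine. An antisense gene, Gm26673, covers 39.6% of the exon bases of Kcna6 in GENCODE, and reads of the 2 cannot be told apart unless strand was used in counting. Kcna3, known from microglia and T cells as well as neurons, was at 4.24–6.17 FPKM in WT-B and 4.11–6.41 FPKM in DKO-B, and did not pass the test. Neither did Kcna4 (1.89–2.76 FPKM over all libraries) or Kcna5 (0.751–2.10 FPKM).

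The beta subunits, which bind the Kv1 alpha subunits in the cytoplasm, did not move as a group. Kcnab2 fell from 101–109 FPKM in WT-B to 87.0–91.2 FPKM in DKO-B (-0.21 ± 0.036 log2, SE; adjusted p = 1.88e-04) and from 99.9–107 to 81.8–88.0 FPKM on nicotine. Kcnab1 rose on water, from 24.2–26.4 to 26.7–33.5 FPKM, a call that rescaling ended (adjusted p = 0.0334, then 0.0898). It was also lost without WT-B-1, WT-B-2, WT-B-4, DKO-B-2 or DKO-B-4 (adjusted p = 0.0552 to 0.110). On nicotine the groups overlapped, at 23.2–31.2 and 22.6–29.0 FPKM. Kcnab3, at 25.6–29.9 and 21.7–25.6 FPKM on water, was not called before rescaling (adjusted p = 0.0742, then 0.0166).

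Of the delayed rectifier (Kv2) subunits, Kcnb2 was at 2.10–2.50 FPKM in WT-B and 1.83–2.15 FPKM in DKO-B on water and just missed the threshold (adjusted p = 0.0502; after rescaling 0.0207). It passed without WT-B-2 or DKO-B-4 (adjusted p = 0.0328 and 0.0342).

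The Kv3 subunits open and close fast and let neurons fire at high rates. Kcnc4 fell from 12.2–13.1 to 9.96–11 FPKM on water and from 12–13.2 to 10.1–11.1 FPKM on nicotine. Kcnc1 and Kcnc2, the members best known from fast-spiking interneurons, did not follow it in both comparisons. Kcnc1 was at 25.8–27.9 FPKM in WT-B and 26.2–28.7 FPKM in DKO-B (difference 0.02 ± 0.040 log2, SE) and did not pass the test in any comparison. Kcnc2 fell on water from 6.78–7.44 to 6.14–6.57 FPKM, by 0.13 log2 (adjusted p = 0.0365), and was not called on nicotine, where the groups overlapped, except by limma voom (adjusted p = 0.0381). The water call was lost with only the groups compared (adjusted p = 0.0518) and without WT-B-1, WT-B-4, DKO-B-1, DKO-B-2 or DKO-B-4 (0.0597 to 0.104). Beside these, 2 of 3 markers of fast-spiking cells (Pvalb, Syt2 and Tac1) were called higher on water, against 25.5% of all genes. Pvalb is also counted among the inhibitory neuron markers. The 3 summed to 55.3–70.3 FPKM in WT-B and 80.1–104.9 FPKM in DKO-B. On nicotine 1 of the 3 was called higher (24.6% of all genes), and the sums overlapped, at 62.9–71.6 FPKM in WT-N and 64.4–97.1 FPKM in DKO-N.

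Of the Kv4 subunits, which carry the A-type current in dendrites, Kcnd2 fell, while Kcnd1 (2.84–3.80 FPKM over all libraries) and Kcnd3 (10.7–13.7 FPKM) were not called. Kcnd2 was at 23.8, 23.6, 25.0 and 23.7 FPKM in WT-B and 19.7, 21, 19.7 and 20.4 FPKM in DKO-B (-0.24 ± 0.041 log2, SE; adjusted p = 2.16e-04), and at 23.2–25.8 and 19.8–21.7 FPKM on nicotine. The calcium-binding partners of these channels split by gene. Kcnip2 fell from 41.6–46.2 to 32.1–37.0 FPKM on water and from 40.2–43.8 to 29.5–34.9 FPKM on nicotine. Kcnip4 fell from 14.9–16.5 to 12.3–13.2 FPKM and from 16.0–17.4 to 12–12.8 FPKM. Kcnip1 and Kcnip3 rose, Kcnip3 from 19.6, 19.2, 21.2 and 19.3 FPKM in WT-B to 24.8, 25.9, 25.2 and 22.9 FPKM in DKO-B. Kcnip3 also encodes the calcium-dependent repressor DREAM, or calsenilin, which binds presenilin. Kcnip1, known from interneurons, was at 7.38–8.89 and 9.33–11.9 FPKM on water and at 8.02–10.1 and 9.75–11.5 FPKM on nicotine, where 1 library of each group overlapped. All 4 genes were called on both exposures and after rescaling, but the nicotine call of Kcnip1 was lost without DKO-N-1 or DKO-N-3 (adjusted p = 0.0555 and 0.0694).

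Silent subunits (Kcnf, Kcng, Kcns and Kcnv) form no channel alone and join Kv2 subunits. On water 5 of 8 fell (Kcnf1, Kcng1, Kcng2, Kcns1 and Kcnv1) and 2 rose (Kcng4 and Kcns2, the latter not after rescaling). Over all genes 12.4% were lower and 25.5% higher on water, so the rises were near the general share. On nicotine 4 fell (5 after rescaling) and 0 rose, against 11% of all genes lower (19% after rescaling) and 24.6% higher. Kcns1 was at 9.84, 10.2, 9.30 and 9.75 FPKM in WT-B and 6.27, 5.50, 6.38 and 6.16 FPKM in DKO-B, a fall of 0.61 ± 0.057 log2 (SE; adjusted p = 3.83e-07). Kcng2 was at 2.89, 2.98, 2.58 and 2.82 FPKM and 1.68, 1.75, 1.52 and 1.59 FPKM, and on nicotine at 2.80, 3.03, 3.02 and 3.06 FPKM and 1.54, 1.53 and 1.01 FPKM. No double knockout library reached the lowest wild-type library in either gene. Kcng4 rose on water, from 1.53, 1.42, 1.63 and 1.70 FPKM to 3.25, 3.00, 3.60 and 2.17 FPKM (0.63 ± 0.117 log2, SE; adjusted p = 4.86e-04). On nicotine its groups overlapped, at 2.09, 2.35, 1.71 and 1.92 FPKM in WT-N and 2.43, 3.54 and 2.10 FPKM in DKO-N, and the difference of 0.28 was not called (adjusted p = 0.101; without DKO-N-3 it was, at 0.0413). Kcnf1, the most abundant silent subunit, fell on water from 33.9–40.7 to 28.7–33.7 FPKM, with each DKO-B library below each WT-B library by a narrow margin. This call was lost without WT-B-3 or DKO-B-2 (adjusted p = 0.0574 and 0.0519). On nicotine Kcnf1 was not called, except after rescaling, by limma voom (adjusted p = 0.0131) or without WT-N-2 (0.0494). Kcng1 also fell in both comparisons, from 5.35–7.41 to 4.42–4.93 FPKM and from 5.50–9.12 to 4.32–4.77 FPKM. The water call of Kcng1 was lost with no filter (adjusted p = 0.0653) and without WT-B-2, WT-B-3, DKO-B-1, DKO-B-2 or DKO-B-4 (0.0610 to 0.129). Kcnv1 fell in both comparisons too, from 9.72–10.1 to 7.07–8.15 FPKM and from 10.4–10.8 to 7.15–8.75 FPKM. Kcns3, known from parvalbumin interneurons, was at 1.06–1.33 FPKM over all libraries and was not called.

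The Kcnh genes (the ether-a-go-go, ELK and ERG channels) were lower in summed level by the largest share among the families with a lower sum, from 80.7–86.8 FPKM in WT-B to 62.6–67.6 FPKM in DKO-B (23.3% of the mean), and from 86.7–88.7 FPKM in WT-N to 64.5–67.5 FPKM in DKO-N (24.1%). In this family 4 of 7 genes fell in both comparisons, where 12.4% of all genes were lower on water and 11% on nicotine. Kcnh3, an ELK channel enriched in forebrain neurons, was the largest part of the sum. It was at 38.4, 39.6, 38.0 and 38.3 FPKM in WT-B and 25.5, 25.2, 24.0 and 25.1 FPKM in DKO-B, a fall of 0.61 ± 0.036 log2 (SE; adjusted p = 1.31e-09). On nicotine it was at 39.6, 41.9, 40.0 and 40.6 FPKM and 27.3, 25.1 and 24.7 FPKM, a fall of 0.64 ± 0.039 log2. The gap between genotypes was larger than the whole range within any group. Kcnh5, an ether-a-go-go channel, fell furthest among all members, from 5.52, 4.18, 5.12 and 6.31 FPKM in WT-B to 2.28, 1.99, 3.19 and 2.85 FPKM in DKO-B (-0.81 ± 0.135 log2, SE; adjusted p = 1.54e-04) and from 4.42–6.53 to 1.80–3.03 FPKM on nicotine (-0.97 ± 0.145). Kcnh7, an ERG channel, fell from 6.88, 5.59, 5.82 and 7.63 FPKM to 3.10, 3.14, 4.33 and 4.22 FPKM on water, and from 7.47, 6.52, 7.32 and 7.23 FPKM to 3.54, 5.53 and 3.80 FPKM on nicotine. Kcnh4, the other ELK gene of the set, fell from 4.89, 5.71, 5.55 and 7.09 FPKM to 3.43, 3.66, 2.75 and 3.19 FPKM on water and from 6.51, 7.44, 6.41 and 6.60 FPKM to 5.05, 4.09 and 3.62 FPKM on nicotine. The remaining 3 did not share this. Kcnh1, the closest relative of Kcnh5, was at 16.4–19.9 FPKM in WT-B and 18.6–22.0 FPKM in DKO-B and was not called, Kcnh6 was at 0.977–1.56 FPKM over all libraries and was not called, and Kcnh2, the ERG channel of the heart, was higher on water by 0.17 log2 (adjusted p = 0.0186; after rescaling 0.116, and without WT-B-4 0.0560).

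**Figure D3:**
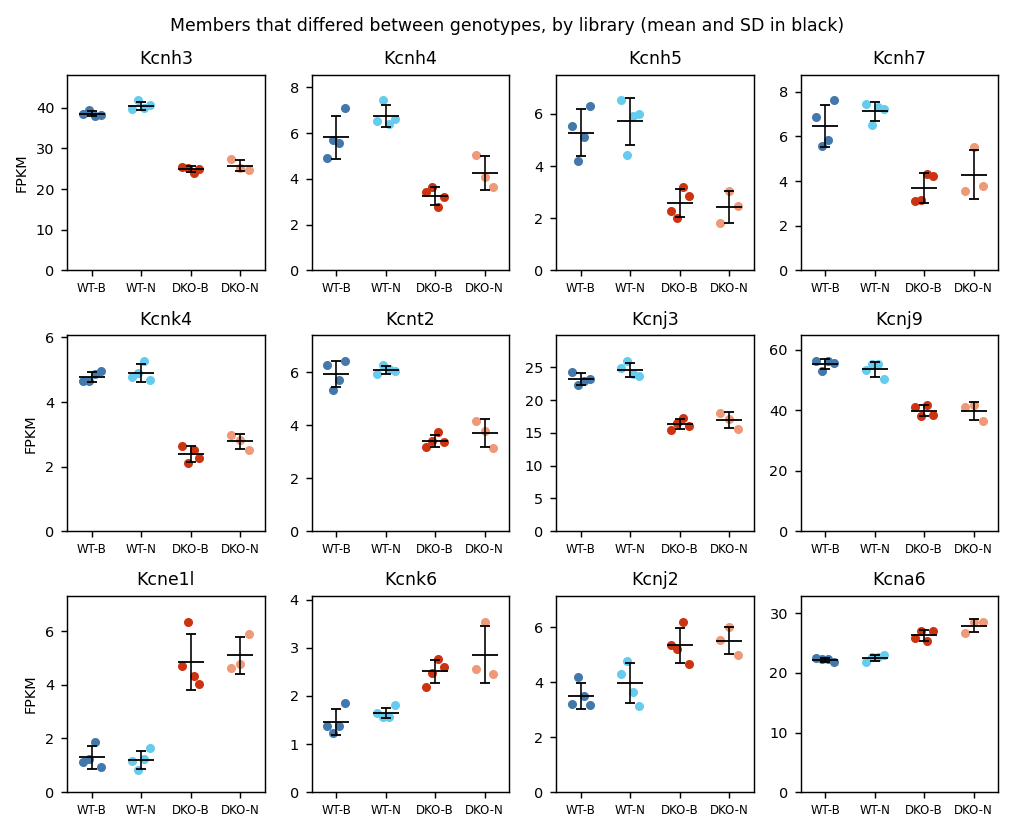
FPKM of 12 members by library, with group means and SD in black and each axis starting at 0. Kcnh3, Kcnh4, Kcnh5, Kcnh7, Kcnk4, Kcnt2, Kcnj3 and Kcnj9 lie lower in DKO-B than in WT-B without overlap, and Kcne1l, Kcnk6, Kcnj2 and Kcna6 lie higher; the same holds for DKO-N against WT-N.

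The Kcnq genes encode the M-current, which muscarinic receptors close. Kcnq5 fell, from 22.0, 21.5, 22.2 and 23.3 FPKM in WT-B to 15.3, 15.4, 17.1 and 17.3 FPKM in DKO-B (-0.43 ± 0.052 log2, SE; adjusted p = 5.94e-06) and from 20.9–22.3 to 14–16.5 FPKM on nicotine. Kcnq3 was not called. It varied widely among wild-type libraries, with 22.7, 21.6, 12.8 and 15 FPKM in WT-B and 14.9, 22.7, 15.4 and 15.6 FPKM in WT-N, and its double knockout libraries on water (15.5–17.9 FPKM) were inside the wild-type range.

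Among the inward rectifiers, the G-protein-gated (GIRK) subunits Kcnj3 and Kcnj9 fell. Kcnj3 was at 24.3, 22.3, 22.9 and 23.2 FPKM in WT-B and 15.5, 16.5, 17.2 and 16.1 FPKM in DKO-B (-0.48 ± 0.048 log2, SE; adjusted p = 6.63e-07), and at 23.6–26.0 and 15.6–18 FPKM on nicotine. A long noncoding gene on the other strand, Gm26794, covers 31.1% of its exon bases. Kcnj9 was at 56.2, 53.0, 56.3 and 55.7 FPKM in WT-B and 41.1, 38.1, 41.7 and 38.4 FPKM in DKO-B (-0.46 ± 0.047; adjusted p = 9.46e-07), and at 50.2–55.4 and 36.4–41.9 FPKM on nicotine. The third GIRK gene of the set, Kcnj6, differed by -0.19 and -0.24 log2 and missed the threshold in both comparisons (adjusted p = 0.0822 and 0.0506; after rescaling 0.0365 and 0.0191). It passed on water without WT-B-3 or DKO-B-3 (adjusted p = 0.0424 and 0.0256) and on nicotine without DKO-N-2 (0.0148).

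The classical inward rectifiers diverged. Kcnj2 rose, from 3.20, 4.19, 3.49 and 3.18 FPKM in WT-B to 5.35, 5.20, 6.20 and 4.66 FPKM in DKO-B (0.49 ± 0.101 log2, SE; adjusted p = 0.00104) and from 4.31, 4.79, 3.64 and 3.14 FPKM to 5.54, 6.02 and 5.0 FPKM on nicotine. Besides neurons it is known from microglia and vessels. Kcnj4, the most abundant of them, was at 22.6–24.6 FPKM in WT-B and 23.5–25.9 FPKM in DKO-B and was not called, and Kcnj12 was called lower on nicotine only, from 4.06–4.83 to 3.55–3.73 FPKM. The Kcnj12 call was lost without WT-N-1, WT-N-4, DKO-N-2 or DKO-N-3 (adjusted p = 0.0536 to 0.0880). Kcnj16, which pairs with Kcnj10 in astrocytes, fell on water, from 6.63, 6.68, 7.0 and 6.51 FPKM in WT-B to 5.52, 5.25, 6.36 and 5.41 FPKM in DKO-B (-0.22 ± 0.056 log2, SE; adjusted p = 0.00580). Its partner Kcnj10, which is outside the set, went the other way, from 34.3 ± 1.25 to 90.3 ± 5.52 FPKM (SD, n = 4 each), as did all 6 astrocyte markers. On nicotine Kcnj16 was at 7.78, 7.95, 7.44 and 6.90 FPKM in WT-N and 6.85, 6.39 and 6.93 FPKM in DKO-N, a difference of -0.14 log2 that was not called before rescaling (adjusted p = 0.0839, then 0.0140). The ATP-sensitive pore Kcnj11 was called higher on nicotine only (10.3, 15.3, 10.4 and 15.9 FPKM in WT-N, 18.5, 16.8 and 17.2 FPKM in DKO-N; adjusted p = 0.0113), with WT-N-1 and WT-N-3 apart from the other wild-type libraries. Kcnj8, the vascular ATP-sensitive pore, was at 1.35–1.66 FPKM in WT-B and 1.27–2.45 FPKM in DKO-B and was not called, except on water without DKO-B-3 (adjusted p = 0.0495). Kcnj13, a channel of epithelia, was at 0.420–1.36 FPKM over all libraries and was called in no comparison, except on nicotine without DKO-N-1 (adjusted p = 0.0432), and exons of Gigyf2 on the other strand cover 49.1% of its exon bases.

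Tandem-pore leak channels (Kcnk) held both the second largest fall and the third largest rise among the members on water. Kcnk4 (TRAAK), a mechanosensitive leak channel, went from 4.66, 4.65, 4.87 and 4.95 FPKM in WT-B to 2.64, 2.10, 2.52 and 2.28 FPKM in DKO-B, a fall of 0.77 ± 0.060 log2 (SE; adjusted p = 4.25e-08), and from 4.76, 4.89, 5.27 and 4.67 FPKM to 2.97, 2.84 and 2.53 FPKM on nicotine. Another gene on the same strand, Catsperz, covers 13.1% of its exon bases. The related mechanosensitive channel Kcnk2 (TREK-1) fell from 9.51–10.4 to 7.0–8.70 FPKM, and Kcnk12 from 5.92–7.39 to 4.27–4.54 FPKM. An antisense gene, A430027H14Rik, covers 12.2% of the exon bases of Kcnk2. Kcnk9 (TASK-3), an acid-sensitive leak channel, fell on water from 12.1, 12.6, 10.8 and 13.9 FPKM to 8.52, 8.71, 8.73 and 9.25 FPKM (-0.44 ± 0.061; adjusted p = 2.44e-05). Kcnk6 (TWIK-2), known from macrophages, rose from 1.37, 1.23, 1.38 and 1.86 FPKM in WT-B to 2.19, 2.48, 2.77 and 2.61 FPKM in DKO-B (0.52 ± 0.092; adjusted p = 3.04e-04) and from 1.66, 1.57, 1.57 and 1.80 FPKM to 2.57, 3.54 and 2.46 FPKM on nicotine. Kcnk13 (THIK-1), the leak channel of microglia, was at 2.42, 3.02, 2.71 and 2.23 FPKM in WT-B and 2.74, 3.91, 3.40 and 2.70 FPKM in DKO-B and was not called on water (adjusted p = 0.106), beside microglial markers that rose in 7 of 7 cases. On nicotine it was called higher, from 2.02, 1.80, 1.65 and 1.97 FPKM to 2.12, 3.08 and 2.67 FPKM (adjusted p = 0.0260, after rescaling 0.0614). That call was lost without WT-N-3, DKO-N-2 or DKO-N-3 (0.0659 to 0.125). In the same comparison 5 of the 7 microglial markers were called higher. Kcnk1, the most abundant leak channel (21.6–23.0 FPKM in WT-B, 21.5–22.7 FPKM in DKO-B), and Kcnk3, an acid-sensitive one (8.05–8.53 and 7.19–8.99 FPKM), were not called, apart from, on nicotine, Kcnk1 after rescaling (adjusted p = 0.0190) and Kcnk3 without WT-N-2 (0.0371).

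Of the channels opened by internal ions, the large-conductance calcium-activated pore Kcnma1 fell, from 23.0, 23.5, 20.8 and 24.1 FPKM in WT-B to 16.6, 16.9, 17.7 and 17.9 FPKM in DKO-B (-0.38 ± 0.050 log2, SE; adjusted p = 1.38e-05) and from 22.8–24.0 to 18–20.4 FPKM on nicotine. Its neuronal beta subunit Kcnmb4 was higher on water by 0.12 log2 (adjusted p = 0.0435), with overlapping libraries, and this call was lost on rescaling (0.325) and without WT-B-1, WT-B-3, WT-B-4, DKO-B-1, DKO-B-2 or DKO-B-4 (0.0537 to 0.150). The antisense gene Kcnmb4os2 covers 20.8% of its exon bases, and another, Kcnmb4os1, covers 10.7%. The 3 small-conductance genes, which carry the slower afterhyperpolarisation, were called in no comparison. Kcnn1 spanned 3.32–4.52 FPKM over all libraries, Kcnn2 7.57–10.2 FPKM and Kcnn3 1.75–2.84 FPKM. Of the sodium-activated pair, Kcnt2 (Slick) fell from 6.27, 5.34, 5.72 and 6.43 FPKM in WT-B to 3.19, 3.40, 3.73 and 3.36 FPKM in DKO-B (-0.65 ± 0.068; adjusted p = 1.40e-06), and from 5.92, 6.25, 6.12 and 6.04 FPKM to 4.17, 3.77 and 3.14 FPKM on nicotine. Kcnt1 (Slack) did not: it was at 18.1–20.9 and 18.1–20.7 FPKM on water, and on nicotine at 16.9–20.1 and 20.3–23.0 FPKM, a higher call that rescaling ended (adjusted p = 0.0158, then 0.102), as did leaving out WT-N-4 or DKO-N-1 (0.0545 and 0.0808). Kcnu1, a channel known from sperm, was at 0.855–1.29 FPKM and was not called.

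Kcne1l showed the largest difference of any member. The gene (chromosome X, 142304753 to 142306198, GRCm38.p6) has Kcne5 among its RefSeq synonyms, and the Kcne family encodes small single-pass subunits that modify voltage-gated channels. It was at 1.14, 1.22, 1.88 and 0.920 FPKM in WT-B and 4.71, 6.34, 4.31 and 4.02 FPKM in DKO-B, a rise of 1.35 ± 0.137 log2 (SE; adjusted p = 9.46e-07). On nicotine it was at 1.16, 0.811, 1.23 and 1.63 FPKM and 4.64, 4.75 and 5.89 FPKM, a rise of 1.47 ± 0.148 log2. The lowest double knockout library was above the highest wild-type library, although the level rested on 21 to 168 reads per library. The gene is X-linked. The water libraries did not differ by genotype in Y-linked expression, whereas the nicotine libraries did. DKO-N-2, which like WT-N lacks Y-linked expression, was at 4.75 FPKM. The product name in the authors' deposited tables calls the gene a pseudogene, and RefSeq lists it as protein coding. Kcne4, the other Kcne gene of the set, was at 0.602–1.65 FPKM over all libraries and was not called.

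**Figure D4:**
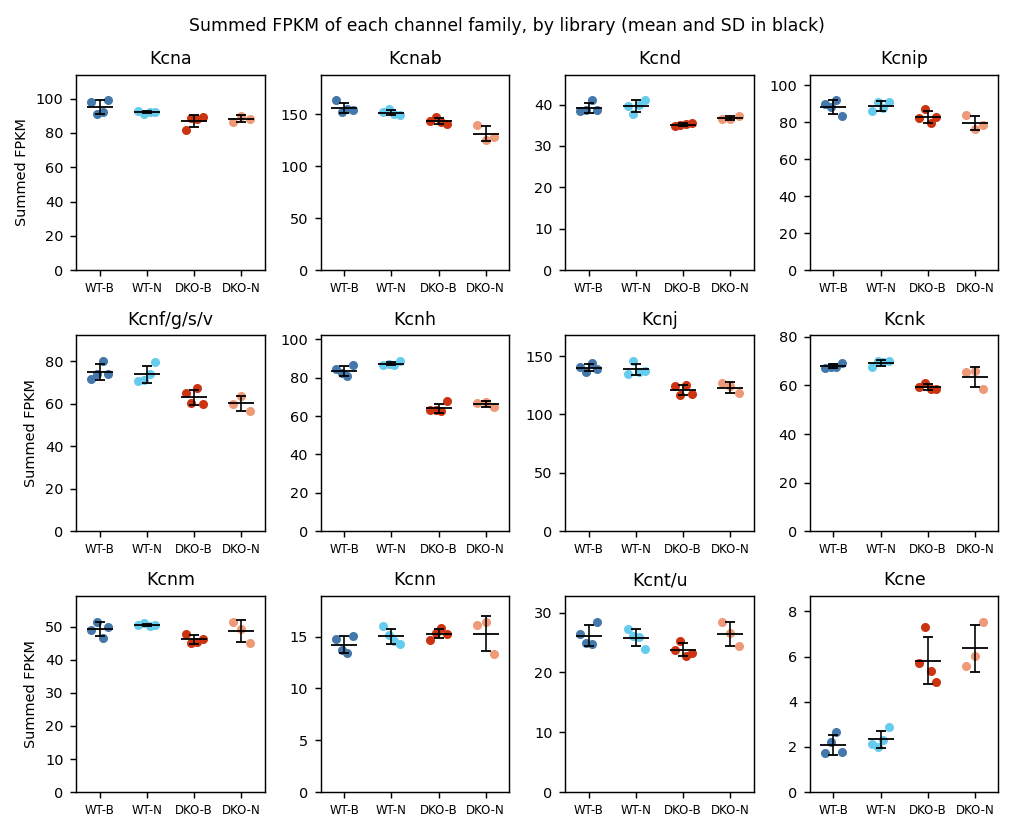
Summed FPKM of the members of 12 of the 15 families by library, with group means and SD in black and each axis starting at 0. The Kcnh sum goes from 80.7–86.8 FPKM in WT-B to 62.6–67.6 FPKM in DKO-B, while the Kcnn sum lies between 13.4 and 16.4 FPKM in all groups.

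By summed level, which has no test here, 9 of 15 families had every DKO-B library below every WT-B library. On nicotine the same families and Kcnip were lower without overlap. Of single genes, 12.5% of all tested were lower without overlap on water and 11.8% on nicotine. No such share was computed for sums of genes. Beside Kcnh, the mean sum on water was 15.8% lower for the silent subunits, 13.5% lower for Kcnj and 12.8% lower for Kcnk. The Kcnj sum leaves out Kcnj10, whose mean rise on water, described above, was larger than the fall of that sum. The lower Kcnj sum thus holds only without Kcnj10. The sums of Kcnip, Kcnm, Kcnn and Kcnt with Kcnu, among others, overlapped between the genotypes on water. The sum of the 2 Kcne genes was the one higher without overlap, at 1.74–2.68 FPKM in WT-B and 4.89–7.32 FPKM in DKO-B, and at 1.99–2.88 FPKM in WT-N and 5.57–7.54 FPKM in DKO-N, most of the difference being in Kcne1l. The Kcnip sum hid the opposite moves of its genes described above.

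Genes that lie next to each other did not always move together. Kcnj16 and Kcnj2 are 38.2 kb apart on chromosome 11, and on water Kcnj16 fell and Kcnj2 rose. Kcna1 and Kcna6 are 62.5 kb apart on chromosome 6, and Kcna1 fell and Kcna6 rose in both comparisons. Kcnj9, which fell, ends 11.9 kb from Kcnj10, which rose, on chromosome 1. Kcna2 and Kcna3, 52.8 kb apart on chromosome 3, differed in that Kcna2 fell in both comparisons and Kcna3 was called in neither.

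Nicotine was compared with water within each genotype. In wild type 0 of 69 members were called by limma (0.173% of all genes), with 9 at an unadjusted p under 0.05 (8.7% of all genes), 4 higher and 5 lower, and limma voom on reads recovered from the FPKM values also called 0. The smallest p belonged to Kcns1, which was at 9.84, 10.2, 9.30 and 9.75 FPKM in WT-B and 7.96, 8.59, 8.13 and 7.41 FPKM in WT-N, a difference of -0.26 ± 0.057 log2 (SE; adjusted p = 0.123). Kcnab3, a beta subunit, was at 29.9, 26.3, 25.6 and 27.2 FPKM and 22.1, 24.6, 21.5 and 17.9 FPKM (-0.33 log2; adjusted p = 0.164). Kcnk13 was at 2.23–3.02 FPKM and 1.65–2.02 FPKM (-0.32 log2; adjusted p = 0.350). In these 3 genes each WT-N library was below each WT-B library, and the WT-N libraries are also those without Y-linked expression.

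In the double knockout 2 of 69 members were called, against 0.157% of all genes (0.102% higher and 0.055% lower), and 16 had an unadjusted p under 0.05 (13.9% of all genes). Kcnk9 was at 8.52, 8.71, 8.73 and 9.25 FPKM in DKO-B and 11.9, 12.9 and 10.9 FPKM in DKO-N, a rise of 0.39 ± 0.065 log2 (SE; adjusted p = 0.0301). The DKO-N libraries overlapped those of wild type on water (10.8–13.9 FPKM) and 2 of the 3 lay below those on nicotine (12.7–13.4 FPKM). Kcns1 was at 6.27, 5.50, 6.38 and 6.16 FPKM in DKO-B and 4.66, 4.17 and 4.90 FPKM in DKO-N, a fall of 0.34 ± 0.062 log2 (adjusted p = 0.0349). It was thus lowest in the group with both knockout and nicotine, and highest in WT-B, with none of the 4 groups overlapping. Kcnj16, next by p, was at 5.25–6.36 FPKM in DKO-B and 6.39–6.93 FPKM in DKO-N and did not pass (adjusted p = 0.140). Neither limma call held without DKO-N-2, the DKO-N library without Y-linked expression (adjusted p = 0.103 for Kcnk9 and 0.132 for Kcns1), nor without DKO-N-1 (0.0777 and 0.0841), DKO-B-1 (0.0879 and 0.110) or DKO-B-3 (0.0894 and 0.106). The Kcnk9 call was also lost without DKO-B-2 (adjusted p = 0.0583) and the Kcns1 call without DKO-B-4 (adjusted p = 0.0521).

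**Figure D5:**
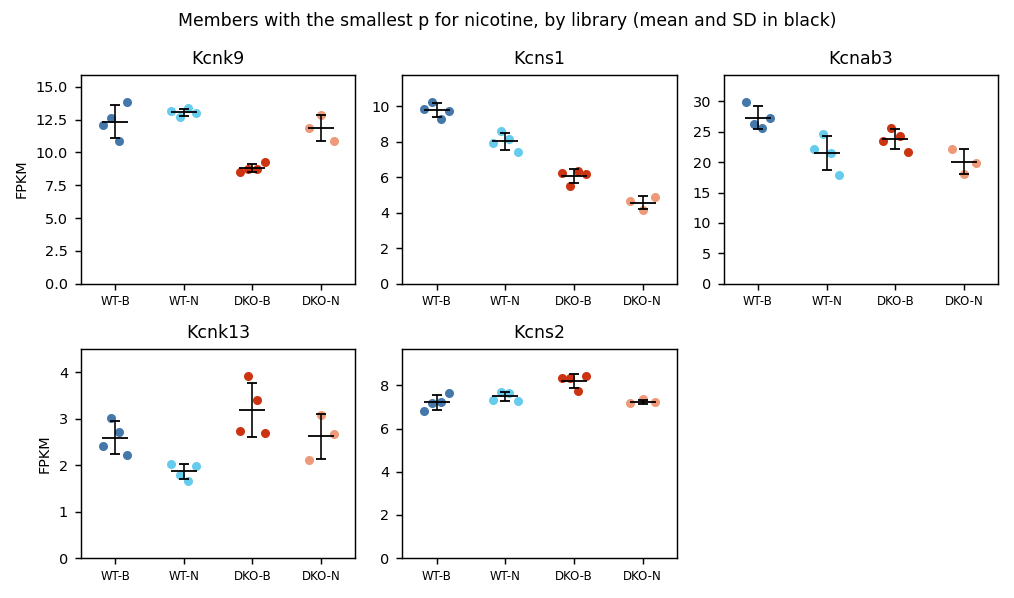
FPKM by library of 5 of the members with the smallest p in a nicotine comparison or the interaction, with group means and SD in black and each axis starting at 0. Kcns1 steps down from WT-B (9.30–10.2 FPKM) to DKO-N (4.17–4.90 FPKM) through WT-N and DKO-B, and Kcnk9 lies at 8.52–9.25 FPKM in DKO-B, below the libraries of the other groups.

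The interaction asks whether nicotine acted differently in the 2 genotypes. No member was called (0 of 69; 2 of all 12728 genes, 0.0157%), and 5 had an unadjusted p under 0.05 (6.9% of all genes). The smallest p belonged to Kcnk9, whose nicotine difference was 0.39 log2 in the double knockout and 0.08 log2 in wild type (interaction 0.31 ± 0.089 log2, SE; adjusted p = 0.581). Kcns2, at 8.32, 8.34, 7.73 and 8.43 FPKM in DKO-B and 7.16, 7.35 and 7.21 FPKM in DKO-N, had an interaction of -0.21 log2 (adjusted p = 0.653). For Kcns1 the nicotine differences were -0.34 in the double knockout and -0.26 in wild type, an interaction of -0.09 ± 0.084 log2.

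Of 46 genes that act on potassium channels or stand beside them, but carry no Kcn symbol, 43 passed the filter. On water 20 fell and 2 rose, where 12.4% of all genes were lower and 25.5% higher, with a median difference of -0.12 log2 against 0.05 for all genes, and on nicotine 17 fell and 3 rose (11% and 24.6% of all genes), with a median of -0.10 against 0.06. After rescaling 27 fell and 1 rose on water (19.8% and 18.2% of all genes), and 25 fell and 1 rose on nicotine (19% and 15.7%). Abcc8, the sulphonylurea receptor that partners Kcnj11 and lies 3.57 kb from it on chromosome 7, fell furthest, from 9.34, 8.97, 8.80 and 11 FPKM in WT-B to 5.67, 5.77, 5.81 and 5.62 FPKM in DKO-B (-0.64 ± 0.082 log2, SE; adjusted p = 1.09e-05), while Kcnj11 itself was not called on water. Lrrc55, a gamma subunit of Kcnma1 channels, fell by 0.59 log2 on water and 0.43 on nicotine. Chrm1, the muscarinic receptor that closes the M-current, fell by 0.41 and 0.43 log2. Ank3, the ankyrin of the axon initial segment, fell by 0.36 and 0.34 log2. The Kv4 partner Dpp6 was not called (difference -0.01 on water) and Dpp10 fell by 0.14 log2. Lgi3, a secreted ligand of Adam22 and Adam23, rose in both comparisons, by 0.20 and 0.33 log2, while Adam23 fell by 0.42 and 0.44. With nicotine 0 of the 43 genes were called in either genotype, with 2 at an unadjusted p under 0.05 in each (8.7% of all genes in wild type and 13.9% in the double knockout).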

How the data were processed

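Per the labels' protocols, TRIzol was used for extraction and a TruSeq Stranded mRNA kit for library making. The submitters' processing notes name the build GRCm38.p6. The aligner, the counting tool and whether strand was used in counting: not given in the sources used here. FPKM values per gene were deposited by the authors as a separate table for each library. Low values were whole multiples of what 1 read is worth, which gave the total reads.

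Values were analysed as log2(FPKM + 1), which understates changes of low genes, for the 12728 genes that met the level rule of the members (1 FPKM, 3 libraries). Limma 3.58.1 in R 4.3.3 was fitted to all 15 libraries with a term per group and an intensity trend, with Benjamini-Hochberg adjustment within each comparison and calls at an adjusted p under 0.05. The functions were tested on simulated data. No covariate for Y-linked expression was used, because the labels give no sex. Promoters came from RefSeq (48 members matched, 21 did not) and exon overlaps from GENCODE vM21.

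The members, lists and rules were chosen with earlier results of these data known. Named genes were the most abundant member of each family, up to 8 called members per direction in each genotype comparison with no overlap between libraries, the members called or with the 3 smallest p for nicotine and the interaction, 12 members known from glia, vessels or fast-spiking neurons, and those at the edge of the rule. Other members are named to complete their families, after their values were seen. Results of some genes are not reported here, and counts over the set include them. Alternatives were median-of-ratios rescaling, a pseudocount of 0.1, no filter or a filter at 5 FPKM, no intensity trend, only the groups compared, a replicate block, limma voom on recovered reads and leaving out each library. Figures were made with Python 3.11.15 and matplotlib 3.10.9.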

Additional observations from a re-analysis of the deposited data

Results flagged for a closer look

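Among 126 sets of 4 libraries examined (42 members in each group of 4), 5 held a library far from the other 3, where chance gives about 1 in 20. Kcng2 in WT-N-1 was at 2.80 FPKM, against 3.02–3.06 FPKM in the other WT-N libraries. Kcnip2 in WT-N-1 was at 40.2 FPKM, against 43.3–43.8 FPKM. Kcnj8 in WT-B-2 was at 1.35 FPKM, against 1.63–1.66 FPKM in the other WT-B libraries, and Kcnmb4 in the same library was the highest of its group at 28.0 FPKM, against 25.7–26.1 FPKM. Kcns2 in DKO-B-3 was at 7.73 FPKM, against 8.32–8.43 FPKM in the other DKO-B libraries.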

How the results depend on the processing

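Under all alternatives run, 34 members kept their call in double knockout against wild type on water and 31 on nicotine, and no called value changed sign. Rescaling by median of ratios brought the members higher on water from 11 to 7. Leaving out each library in turn gave 8 to 12 members higher and 27 to 31 lower on water, and 8 to 10 higher and 25 to 27 lower on nicotine. Nicotine in wild type and the interaction kept 0 called members in each of these. Nicotine in the double knockout, with 1 member higher and 1 lower, gave 0 to 1 in each direction without 1 library, 0 higher and 0 lower with only the groups compared, and 0 lower with no filter or with the replicate block. Same-numbered libraries did not deviate together (21 pairs, correlations -0.214 to 0.165, 2 over 0.1), and differently numbered pairs from different groups had correlations of -0.188 to 0.229. No strong shared deviation was seen, but this cannot show whether the numbers mark a shared origin. With the replicate block 11 members were higher and 29 lower on water, and 11 higher and 25 lower on nicotine; the water call of Kcnc2 (adjusted p = 0.0632) and the nicotine call of Kcnj12 (0.0528) were lost, and Kcna3 and Kcnh1 were called higher on nicotine (0.0353 and 0.0258). The cause of these moves was not tested, other than that fewer libraries enter the fit with only the groups compared or 1 library left out. Low members are limited by depth: Kcne1l, Kcnj13 and Kcne4 stood on as few as 21, 23 and 28 reads in a library.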
